A study of Mus musculus with 4 samples.

Results

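The EGR, NR4A and other immediate early genes were followed as 10 members: Egr1, Egr2, Egr3, Nr4a1, Nr4a2, Ier2, Ier3, Ier5, Btg2 and Zfp36. They were found on the array by gene name among the non-control probes, which gave 15 probes of 41174, for 10 of 27674 names. RNA came from bone marrow of male C57BL/6 mice, from which immature granulocytes had been sorted. The groups were miR-223 KO mice (2 arrays) and wild type mice (WT, 2 arrays), with no treatment named for either. The knockout allele, the age of the animals, the sorting gate and whether the replicates were separate animals are not given in the sources used here, so the p-values below cover the spread between these arrays, and that spread may be technical.

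Immediate early genes are those that cells transcribe first after a stimulus, from factors already present and without new protein synthesis. Many of them are switched on through the serum response factor, which binds the CArG box, or through CREB, which binds the cAMP response element, and their transcripts are short-lived. In myeloid cells they are known to respond to growth factors, adhesion and inflammatory signals, and also to the handling of tissue while cells are isolated. The EGR and NR4A members are transcription factors, whereas Btg2 and Zfp36 act on the stability of other transcripts.

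The knockout removes miR-223, a myeloid microRNA that pairs with transcripts through its seed. Its mature sequence in RefSeq (GRCm38.p6, chrX:96242884-96242905, plus strand) is shown because it is the deleted molecule, with the seed, bases 2 to 8, in capitals.
miR-223-3p: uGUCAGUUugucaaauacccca
Of the 15 member probes, 0 held a match to that seed: neither AACTGAC, nor ACTGACA, nor the shorter ACTGAC lay in any of these 60-base sequences. This says only that these letters are not in the probes, and the share of all probes that hold them was not counted. The exon or untranslated region that a probe lies in is not annotated in the files.

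Each signal below is a relative signal, the background-subtracted intensity of a probe divided by the 75th percentile of that intensity over the non-control spots of its array. Those percentiles were 361 and 422 in KO and 314 and 310 in WT. Between 59.6% and 62.9% of the spots of an array were well above background, and 0 were saturated. No probe of the array is annotated to Mir223 (0 of 41174), so the deleted gene does not check the genotype labels here. Immature granulocyte markers such as Elane, Mpo, Ltf, Camp and S100a8 were measured (16 of the 16 found on the array). Their summed relative signal was 6937 and 6169 in KO and 6650 and 7208 in WT. Single markers went both ways: KO arrays lay above WT arrays in 8 of the 16 (28% of all genes) and below them in 4 (30.5%). The log2 difference (KO minus WT) was 0.72 for Prtn3, 0.63 for Ctsg and 0.50 for Elane. It was -0.44 for Ltf, -0.20 for S100a8, -0.20 for S100a9 and -0.18 for Chi3l3, the 4 that lay below.

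Of the 10 members, 6 had at least 1 probe with both KO arrays above both WT arrays: Egr1, Ier2, Ier3, Ier5, Btg2 and Zfp36. Single probes met this rule in 26.3% of cases, which is not the share of genes with at least 1 such probe. By its brightest probe Ier2 overlapped between genotypes, which leaves 5 of 9 measured members, against 28% of all genes. Counted by probe, 9 member probes had both KO arrays above both WT arrays, and their differences ran from 1.47-fold for Ier3 to 1.87-fold for Egr1. Nr4a1, Nr4a2 and Egr2 had overlapping genotypes, and Egr3 was not well above background on any array. The 13 probes of the other 9 members were well above background on all 4 arrays, so the filter on dim probes did not select among them by genotype.

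No member passed the test. limma with Benjamini-Hochberg adjustment over 25749 probes gave 0 probes at an adjusted p under 0.05 (0% of those tested), and 0 of the 13 member probes. At an unadjusted p under 0.05 it gave 6345 probes. Among them 2848 were higher in KO, 11.1% of those tested, and 3497 were lower, 13.6%. Of the 13 member probes 9 were higher at that level and 0 were lower, and without WT replicate 2 that number was 5, with 8.66% of all probes higher. Both KO arrays lay above both WT arrays in the same number, 9 of 13 member probes, against 26.3% of all probes, and below them in 0, against 32.8%. The log2 difference was above 0 in 12 of 13, against 45.3% of all probes. It was at least 1.5-fold higher in KO in 7 of 13, against 5.19% of all probes, and at least 1.5-fold lower in 0, against 5.75%. When limma's prior variance was allowed to follow signal intensity, 7 of the 13 were higher at an adjusted p under 0.05 and 0 lower, against 5.04% and 4.63% of all probes. Several of these probes share a gene, so they are not 13 independent observations. Genes read on the same arrays are not independent either. By the brightest probe, WT replicate 2 was the lower WT array in every measured member except Nr4a2. The median absolute log2 difference between the WT arrays was 0.22 over these 9 genes and 0.12 over all genes. Between the KO arrays it was 0.17 and 0.14. With each gene taken by its brightest probe, 5 of 9 were higher at an unadjusted p under 0.05, against 11.9% of 16988 genes. By the same reading both KO arrays lay above both WT arrays in 5 of 9 (28% of all genes) and below them in 0 (30.5%). The difference was above 0 in 8 of 9 (47.5%), at least 1.5-fold higher in 3 (5.66%) and at least 1.5-fold lower in 0 (5.85%). The members and lists were proposed with earlier results of these data known, and these counts describe them.

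**Figure D1:**
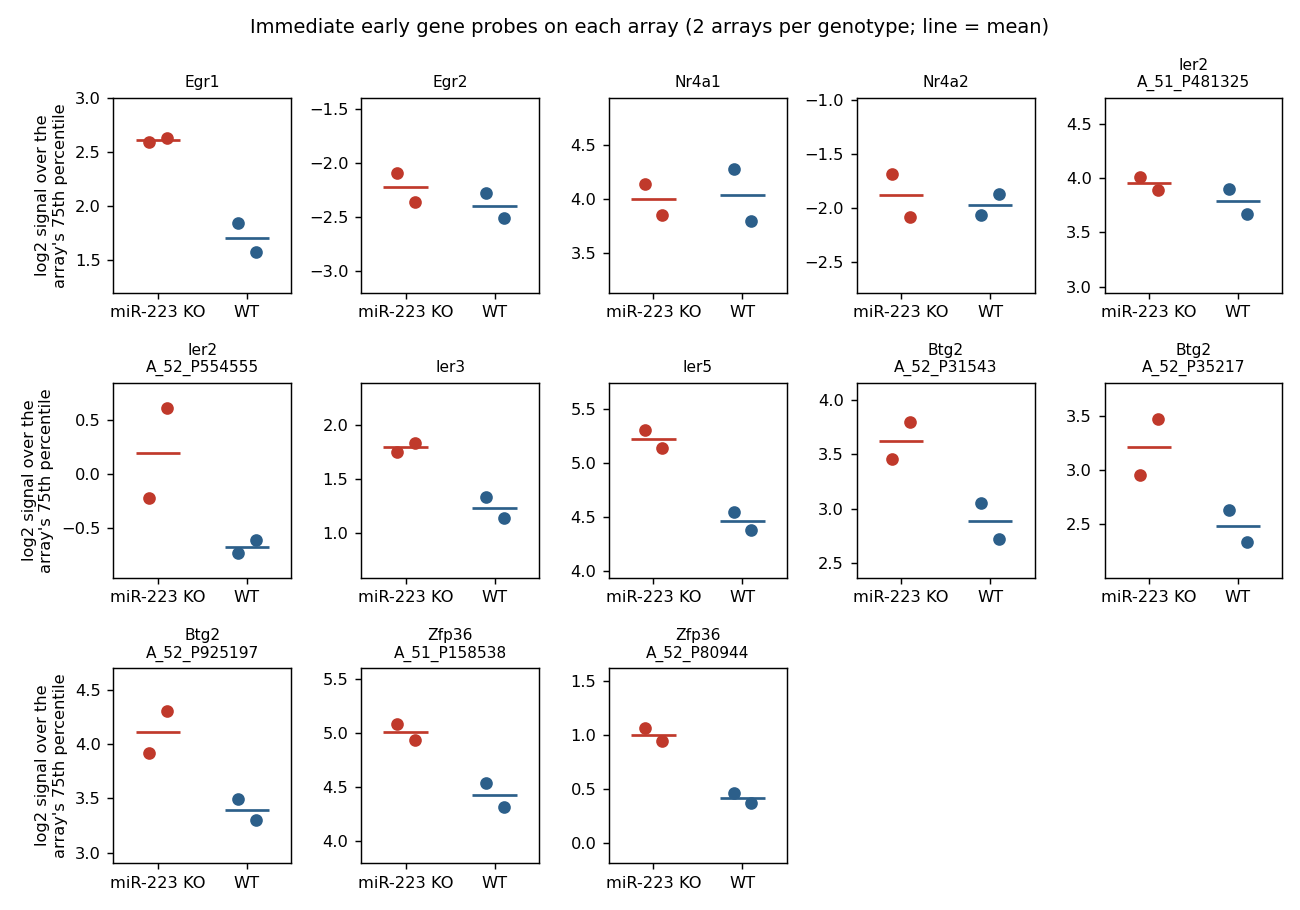
Relative signal of each of the 13 probes that passed the filter, on a log2 scale, with a point for each array and a line for the mean of 2 arrays, miR-223 KO left of WT; every panel spans the same number of log2 units around its own middle. In 9 panels the KO points lie above the WT points, and in those of Egr2, Nr4a1, Nr4a2 and the brighter Ier2 probe the genotypes overlap.

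Egr1 encodes a zinc finger transcription factor that binds GC-rich promoter elements and is known in mouse and human for its part in macrophage differentiation. Its probe (mm9 chromosome 18, 35024395 to 35024454, plus strand) had a relative signal of 6.03 and 6.18 in KO, against 3.59 and 2.98 in WT. The KO arrays were close to each other and both were above the higher WT array. The log2 difference (KO minus WT) was 0.90 ± 0.13 (SE, n = 2 arrays per genotype), or 1.87-fold, with a 95% interval of 0.55 to 1.25. It did not pass (limma, adjusted p = 0.0898), although with an intensity trend it did (limma, adjusted p = 0.00817).

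Egr2, a relative of Egr1 known for its part in hindbrain patterning, myelination and T cell tolerance, was measured by a probe printed in 10 spots on each array (mm9 chromosome 10, 67004758 to 67004817, plus strand). Its relative signal was 0.235 and 0.195 in KO, against 0.206 and 0.176 in WT. One KO array was above both WT arrays and the other lay between them. The 10 spots of an array had a coefficient of variation of 5.85% and 4.21% in KO and 6.77% and 6.31% in WT, which is the spread of printing and scanning within an array. The log2 difference was 0.17 ± 0.15 (SE, n = 2 arrays per genotype; 95% interval -0.25 to 0.58; limma, adjusted p = 0.528), so that neither no difference nor one as large as 0.5 lies outside the interval. With background correction by normexp the difference was -0.57, and -0.01 with control spots left out of that fit.

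Egr3, the third zinc finger factor of the family, known for its part in muscle spindle development, had a pair of probes on chromosome 14 (mm9, 70478827 to 70478886 and 70481979 to 70482038, plus strand). Their relative signals ran from 0.00659 to 0.00912 in KO and from 0.0043 to 0.00969 in WT. All lay below 0.0144, the lowest relative signal of any probe called well above background on any array, and no fold is given. Both probes were left out of the test.

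Of the remaining EGR and NR4A relatives and the corepressors of EGR factors, Egr4, Nr4a3 and Wt1 had no probe that passed the filter. Nab1, which binds EGR proteins and represses their activity, had a relative signal of 4.23 and 4.25 in KO, against 5.0 and 5.16 in WT, and both KO arrays lay below both WT arrays (log2 difference -0.26 ± 0.08 SE; limma, adjusted p = 0.173). Nab2, the other corepressor and itself reported as a gene that EGR factors induce, was dim, at 0.0587 and 0.0539 in KO and 0.0443 and 0.0496 in WT (0.26 ± 0.11 SE; limma, adjusted p = 0.24), with both KO arrays above both WT arrays.

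Nr4a1 encodes Nur77, an orphan nuclear receptor that Ly6C-low monocytes of mice need for their development. The probe (mm9 chromosome 15, 101105071 to 101105130, plus strand) had a relative signal of 17.7 and 14.5 in KO, against 19.4 and 13.9 in WT. Both KO arrays lay between the WT arrays. The log2 difference was -0.04 ± 0.21 (SE, n = 2 arrays per genotype), with a 95% interval of -0.63 to 0.56 (limma, adjusted p = 0.928). That interval still holds the value of Egr2, and the sign was positive without KO replicate 2, without WT replicate 1, with normexp on all spots and on the deposited values. Nr4a2, which encodes the related receptor Nurr1, known for its part in dopaminergic neurons, was at 0.311 and 0.236 in KO and 0.238 and 0.273 in WT (mm9 chromosome 2, 56960699 to 56960758, minus strand). The genotypes overlapped, and the log2 difference was 0.09 ± 0.18 (SE; 95% interval -0.40 to 0.58; limma, adjusted p = 0.78). Whether the NR4A members differ from Egr1 in their response was not tested.

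**Figure D2:**
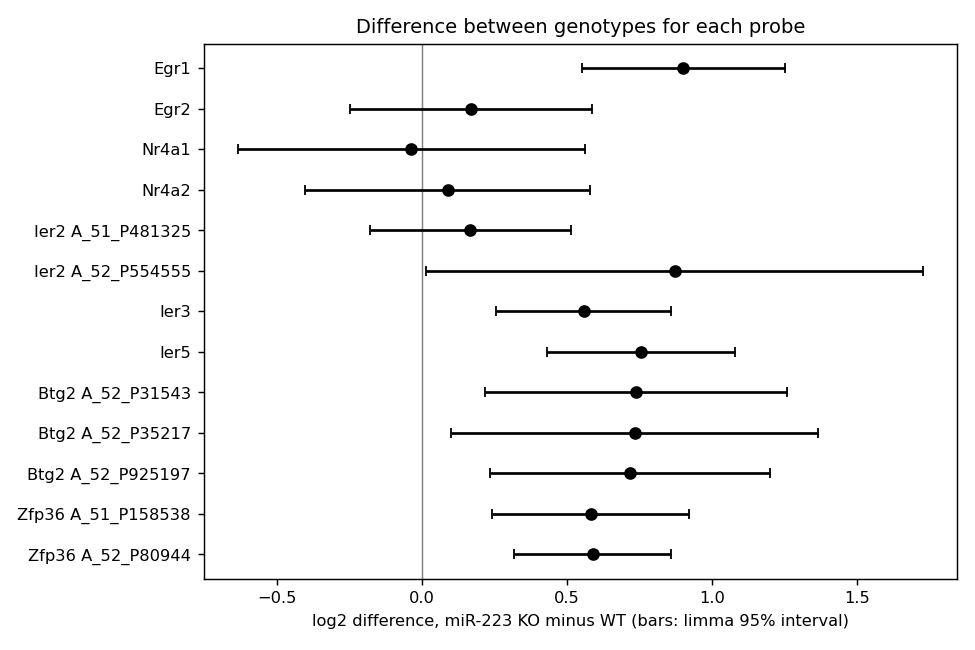
Log2 difference, miR-223 KO minus WT, for each of the 13 probes that passed the filter, with limma's 95% interval from 2 arrays per genotype. The intervals of Egr2, Nr4a1, Nr4a2 and the brighter Ier2 probe span 0, and that of the dimmer Ier2 probe starts at 0.01.

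The IER genes are named for their rapid induction. Ier2 encodes a small nuclear protein and had a pair of probes on the minus strand of chromosome 8 that gave different sizes. At mm9 87185211 to 87185245, the part of the probe that the files place on the genome, the relative signal was 16.2 and 14.9 in KO, against 15.0 and 12.7 in WT, with the lower KO array between the WT arrays. The log2 difference there was 0.17 ± 0.12 (SE, n = 2 arrays per genotype; 95% interval -0.18 to 0.51; limma, adjusted p = 0.456). The dimmer probe, at 87183623 to 87183681 and annotated through a cDNA clone, was at 0.858 and 1.53 in KO, against 0.601 and 0.653 in WT. Its KO arrays were far apart, and the log2 difference of 0.87 ± 0.31 (SE; 95% interval 0.01 to 1.73; limma, adjusted p = 0.2) was 1.29 without KO replicate 1 and 0.45 without KO replicate 2. Which of the probes follows the Ier2 transcript more closely was not tested.

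Ier3, also called IEX-1, encodes a regulator of apoptosis that NF-kB and p53 are known to induce. Its probe (mm9 chromosome 17, 35959528 to 35959587, plus strand) had a relative signal of 3.36 and 3.55 in KO, against 2.51 and 2.20 in WT. Both KO arrays were above both WT arrays, by 1.47-fold in the mean (limma, adjusted p = 0.107).

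Ier5 encodes a partner of protein phosphatase 2A that is reported to raise the activity of the heat shock factor HSF1. Its probe (mm9 chromosome 1, 156944778 to 156944837, minus strand) had a relative signal of 39.5 and 35.2 in KO, against 23.4 and 20.8 in WT. The KO arrays were well apart from the WT arrays, and the spread within each genotype was small beside that gap. The log2 difference was 0.75 ± 0.12 (SE, n = 2 arrays per genotype; 95% interval 0.43 to 1.08), or 1.69-fold (limma, adjusted p = 0.0953, and 0.0096 with an intensity trend).

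Btg2 encodes an antiproliferative protein that recruits the CCR4-NOT deadenylase to transcripts and is a known p53 target. It was read by 3 probes on the minus strand of chromosome 1 (mm9), and all had both KO arrays above both WT arrays. The brightest, at 135973916 to 135973975, had a relative signal of 15.1 and 19.8 in KO, against 11.2 and 9.85 in WT. The probe at 135972094 to 135972153 was at 11.0 and 13.9 in KO and 8.31 and 6.60 in WT. The probe at 135974181 to 135974240 was at 7.75 and 11.1 in KO and 6.20 and 5.03 in WT. The log2 differences of these probes were 0.72, 0.74 and 0.73, with SEs of 0.17, 0.19 and 0.23. Those SEs measure the spread between arrays, which the probes share, and not the spread between probes. In each of the 3 probes KO replicate 2 was the highest array. None passed (limma, adjusted p = 0.128, 0.134 and 0.169).

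Zfp36 encodes tristetraprolin, which binds AU-rich elements of short-lived transcripts such as Tnf and speeds their deadenylation. Its brighter probe (mm9 chromosome 7, 29162132 to 29162191, minus strand) had a relative signal of 33.8 and 30.7 in KO, against 23.2 and 20.0 in WT. The dimmer probe, at 29161940 to 29161999, was at 2.10 and 1.92 in KO, against 1.38 and 1.29 in WT. In both probes the KO arrays were above the WT arrays. Their log2 differences, read on the same arrays, were 0.58 ± 0.12 and 0.59 ± 0.10 (SE, n = 2 arrays per genotype). Neither passed (limma, adjusted p = 0.113 and 0.0954).

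**Figure D3:**
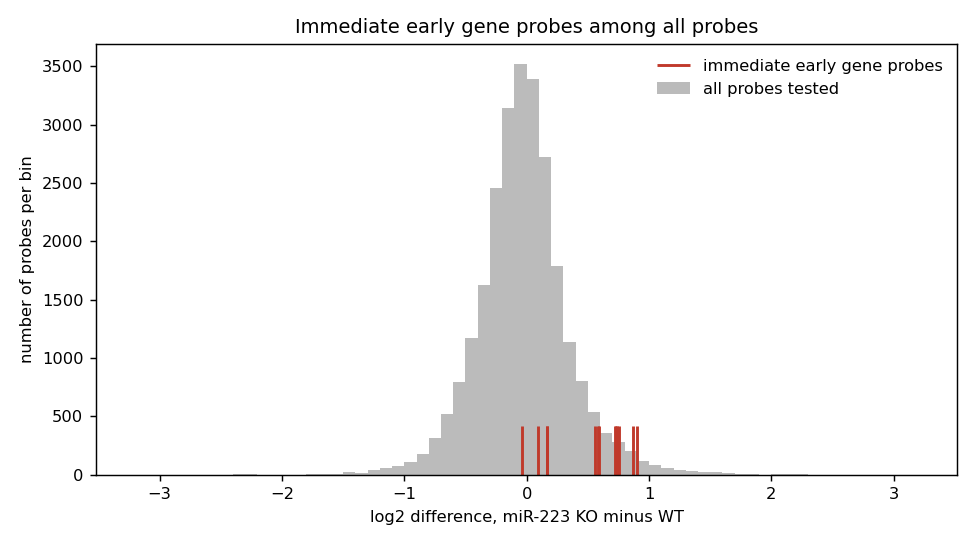
Number of probes in each bin of log2 difference, miR-223 KO minus WT, for the 25749 probes tested (grey bars), with a red line at the value of each of the 13 immediate early gene probes. The median was 0.59 over these 13 probes and -0.03 over all probes.

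The promoters of the members were searched for elements that immediate early genes are known to carry. RefSeq windows (GRCm38.p6) were matched for 7 of the 10 members, all but Egr1, Egr3 and Ier2, as 11 windows of 250 bases before an annotated start. Both strands were searched for the CArG box, the full cAMP response element TGACGTCA, its shorter form TGACG, which also lies within the full element, and the GC-rich EGR element GCGGGGGCG. A CArG box lay in windows of Egr2 and Zfp36 (1.47% of all 32851 windows hold one), and the full cAMP response element in that of Btg2 (1.55%). The EGR element lay in the windows of Zfp36 and Nr4a1 (2.57%). The shorter form lay 4 times in the windows of both Nr4a1 and Nr4a2 (0.137% of windows hold it at least 4 times). It also lay 2 times in 3 of the 5 Egr2 windows and 2 times in that of Btg2, there within the full element, and 17.8% of all windows hold it at least 1 time. The windows of Ier3 and Ier5 held 0 of the 4 motifs. A match is a description of letters and not a bound site.

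The windows of Zfp36 (chr7:28379229-28379478, minus strand) and Egr2 (chr10:67537619-67537868, plus strand, 1 of 5 windows of this gene) are shown for their CArG boxes. Capitals mark the CArG box, which starts 58 bases before the Zfp36 start and 72 before this Egr2 start, and in Zfp36 also the EGR element, upstream of the CArG box. The 2 matches to TGACG in this Egr2 window are left in lower case.
Zfp36: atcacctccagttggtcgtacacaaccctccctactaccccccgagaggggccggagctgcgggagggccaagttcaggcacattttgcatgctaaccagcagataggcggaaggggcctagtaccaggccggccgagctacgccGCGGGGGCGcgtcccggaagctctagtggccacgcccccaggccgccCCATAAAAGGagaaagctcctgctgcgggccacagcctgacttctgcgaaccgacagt
Egr2: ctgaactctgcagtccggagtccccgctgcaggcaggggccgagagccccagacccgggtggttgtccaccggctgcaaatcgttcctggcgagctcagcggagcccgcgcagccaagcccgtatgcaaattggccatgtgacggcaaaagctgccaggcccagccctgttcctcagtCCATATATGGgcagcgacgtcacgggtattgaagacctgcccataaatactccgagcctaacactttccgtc
Of these, the log2 difference was 0.58 and 0.59 for the Zfp36 probes and 0.17 for Egr2, and whether the genes differ in this was not tested.

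The windows of Btg2 (chr1:134079156-134079405, minus strand), Nr4a1 (chr15:101266596-101266845, plus strand) and Nr4a2 (chr2:57124004-57124253, minus strand) are shown for the cAMP response element. Capitals mark TGACGTCA in Btg2, 166 bases before the start, and each TGACG or its complement CGTCA in the NR4A genes. The matches start 233, 213, 69 and 40 bases before the Nr4a1 start and 200, 144, 123 and 111 before the Nr4a2 start.
Btg2: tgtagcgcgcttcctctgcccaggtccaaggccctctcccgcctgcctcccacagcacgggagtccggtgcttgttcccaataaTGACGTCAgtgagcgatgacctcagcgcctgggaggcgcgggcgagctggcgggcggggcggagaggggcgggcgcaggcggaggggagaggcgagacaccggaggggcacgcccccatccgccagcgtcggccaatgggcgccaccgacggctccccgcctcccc
Nr4a1: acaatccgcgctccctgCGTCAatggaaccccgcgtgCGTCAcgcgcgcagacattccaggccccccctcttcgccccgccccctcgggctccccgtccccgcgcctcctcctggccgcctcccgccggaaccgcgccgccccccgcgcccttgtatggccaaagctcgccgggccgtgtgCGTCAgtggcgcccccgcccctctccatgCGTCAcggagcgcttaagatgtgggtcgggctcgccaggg
Nr4a2: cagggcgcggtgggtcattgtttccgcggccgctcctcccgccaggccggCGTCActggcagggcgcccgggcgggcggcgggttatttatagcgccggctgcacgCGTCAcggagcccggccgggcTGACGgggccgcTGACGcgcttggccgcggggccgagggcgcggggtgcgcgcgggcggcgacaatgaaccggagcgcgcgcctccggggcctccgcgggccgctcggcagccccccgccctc
Of these, the log2 difference was 0.72 to 0.74 for the Btg2 probes, -0.04 for Nr4a1 and 0.09 for Nr4a2.

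Members were left out of the counts of every list below. Other immediate early genes were followed as a list of 49, of which 46 were measured by a probe that passed the filter. At an unadjusted p under 0.05, 13 were higher in KO and 2 lower, against 11.9% and 12.1% of all genes taken by their brightest probe, and over all probes 0 passed. Their median log2 difference was 0.25, against -0.02 over all genes. With an intensity trend 11 were higher and 1 lower at an adjusted p under 0.05, against 5.89% and 4.58%. The AP-1 subunit Jun was at 5.97 and 6.30 in KO, against 2.76 and 2.47 in WT, and Junb at 48.8 and 51.7 in KO, against 32.0 and 29.6 in WT. Rhob, a small GTPase, was at 4.90 and 4.94 in KO, against 2.06 and 1.93 in WT. Socs3, a feedback inhibitor of cytokine signalling, was at 0.774 and 0.764 in KO, against 0.418 and 0.342 in WT. For these 4 genes the KO arrays lay above the WT arrays (limma, adjusted p = 0.087 for Rhob and Jun and 0.0895 for Junb and Socs3).

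Heat shock genes, which cells induce on stress and handling, were all measured (16 of 16). At an unadjusted p under 0.05, 4 were higher in KO and 0 lower (11.9% and 12.1% over all genes), and the median log2 difference was 0.23. These 4 were the chaperones Hspa1a (1.69 ± 0.09 SE), Hspa1b (1.54 ± 0.11), Hspe1 (0.69 ± 0.09) and Hspa8 (0.58 ± 0.13), none of which passed (limma, adjusted p = 0.087 to 0.115). Hspa1a was at 17.3 and 16.9 in KO, against 5.45 and 5.18 in WT. Over the whole list the log2 difference was above 0 in 12 of 16 (47.5% of all genes). KO arrays lay above WT arrays in 9 (28%) and below them in 1 (30.5%). Of the rest, Hspa4l was at -0.19, Dnajb1 at -0.08, Hsf1 at -0.05, Hsp90aa1 at 0.11, Bag3 at 0.34 and Hsph1 at 0.47, named after their values were seen. The part of the heat shock genes in the values of the members was not tested.

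Transcripts of the factors and kinases of the serum and cAMP responses, which switch immediate early genes on, were measured for 15 of 16. At an unadjusted p under 0.05, 2 were higher in KO and 2 lower, near the shares over all genes (11.9% and 12.1%). The log2 difference was above 0 in 6 of the 15 (47.5% of all genes), with a median of -0.06, and KO arrays lay above WT arrays in 2 (28%) and below them in 6 (30.5%). Elk3 and Elk4, partners of serum response factor, were at 0.55 ± 0.12 and 0.47 ± 0.11 (SE). Crtc2, a coactivator of CREB, was at -0.42 ± 0.09, and Atf1, a relative of CREB, at -0.29 ± 0.08. None of these passed (limma, adjusted p = 0.115 to 0.149).

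Of the relatives of Btg2, Zfp36 and the IER genes, 7 of 8 were measured. At an unadjusted p under 0.05, 0 were higher in KO and 0 lower (11.9% and 12.1% over all genes). With 7 genes a count of 0 is not far from those shares. Tob1 was at 0.19 ± 0.12 (SE of the log2 difference), Btg1 at 0.22 ± 0.14, Btg3 at -0.25 ± 0.20 and Zfp36l1 at 0.35 ± 0.30.

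Transcripts reported as bound by tristetraprolin, besides the member Ier3, were measured in 13 of the 18 found on the array. At an unadjusted p under 0.05, 3 were higher in KO and 1 lower (11.9% and 12.1% over all genes), with a median log2 difference of 0.24. Ier3, given above, is a further target that was higher at that level. The chemokine Ccl3 was at 7.52 and 6.51 in KO, against 4.05 and 2.88 in WT. The MAP kinase phosphatase Dusp1, itself an immediate early gene and in that list too, was at 0.87 ± 0.18 (SE of the log2 difference), and the cytokine Il1b at 0.79 ± 0.25. Bcl2, which protects cells from apoptosis, was at -0.57 ± 0.13. None passed (limma, adjusted p = 0.109 to 0.173).

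Targets of p53, which is known to induce Btg2, were measured in 17 of 18. At an unadjusted p under 0.05, 4 were higher in KO besides 1 that was lower (11.9% and 12.1% over all genes), with a median log2 difference of 0.15. Zmat3, dim in both genotypes, was at 1.53 ± 0.18 (SE) and the cyclin Ccng1 at 0.32 ± 0.09. The nuclease Aen was at 0.30 ± 0.08 and the membrane protein Perp at -1.12 ± 0.10. None passed (limma, adjusted p = 0.087 to 0.154).

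**Figure D4:**
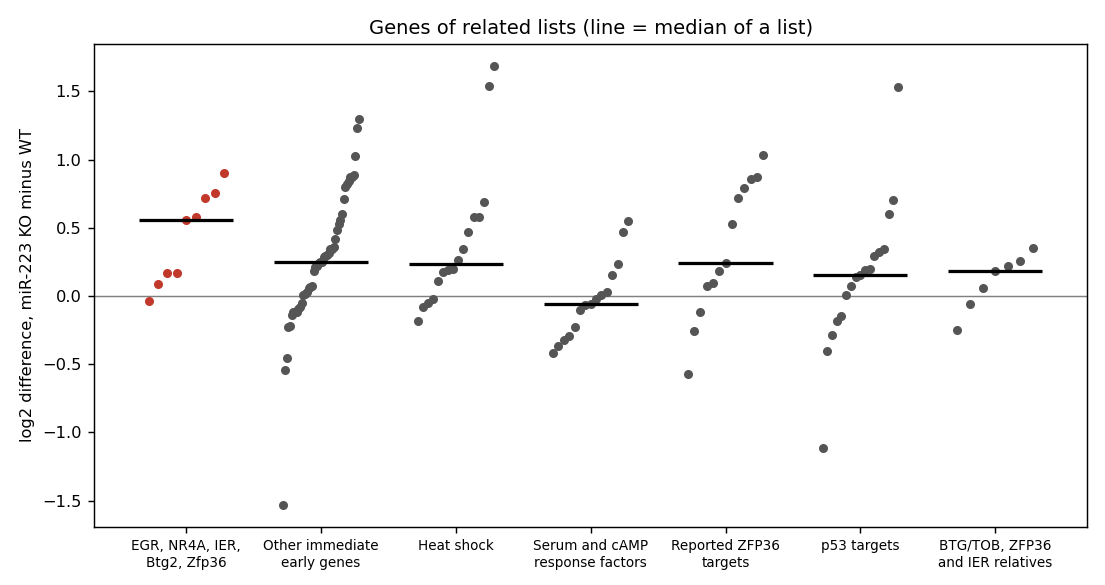
Log2 difference, miR-223 KO minus WT, of each measured gene, taken by its brightest probe, in the 9 measured EGR, NR4A, IER, Btg2 and Zfp36 genes (red) and in the related lists (grey), sorted within a list, with a line at each median. The medians were 0.56 for the 9 genes, 0.25 for other immediate early genes, 0.23 for heat shock genes and -0.06 for serum and cAMP response factors.

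Lists of markers of other cell types had medians on both sides of 0, and no marker passed the adjusted threshold. Their counts at an unadjusted p under 0.05 stand against 11.9% higher and 12.1% lower over all genes. In bulk RNA more cells of a type and more RNA per cell cannot be told apart. Of 22 monocyte and macrophage markers, all measured, 10 were higher and 1 lower at an unadjusted p under 0.05 (median log2 difference 0.47), while their summed relative signal was 1871 and 1793 in KO and 1864 and 1792 in WT. Most of that sum came from Lyz1, Lyz2 and Ly6c2, and the other 19 markers summed to 220 and 206 in KO and 152 and 154 in WT, a split made after the values were seen. Of 9 measured eosinophil, basophil and mast cell markers 4 were higher and 1 lower, with sums of 20.0 and 18.6 in KO and 13.6 and 11.9 in WT, and Il5ra did not pass the filter. Of 11 dendritic cell markers 4 were higher and 0 lower, with sums of 98.8 and 77.3 in KO and 53.8 and 62.2 in WT. Of 8 measured erythroid and platelet markers 1 was higher and 3 lower, with sums of 109 and 80.7 in KO and 148 and 144 in WT. Of 13 measured B and T cell markers 1 was higher and 3 lower, with sums of 10.1 and 7.88 in KO and 7.47 and 7.98 in WT, and Ebf1 did not pass the filter. Without Cd79b, the brightest of these, the sums were 2.54 and 1.65 in KO and 2.66 and 2.82 in WT. Immature granulocyte markers had 3 higher, Prtn3, Ctsg and Elane, and 0 lower. The part of these cells in the values of the immediate early genes was not tested.

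**Figure D5:**
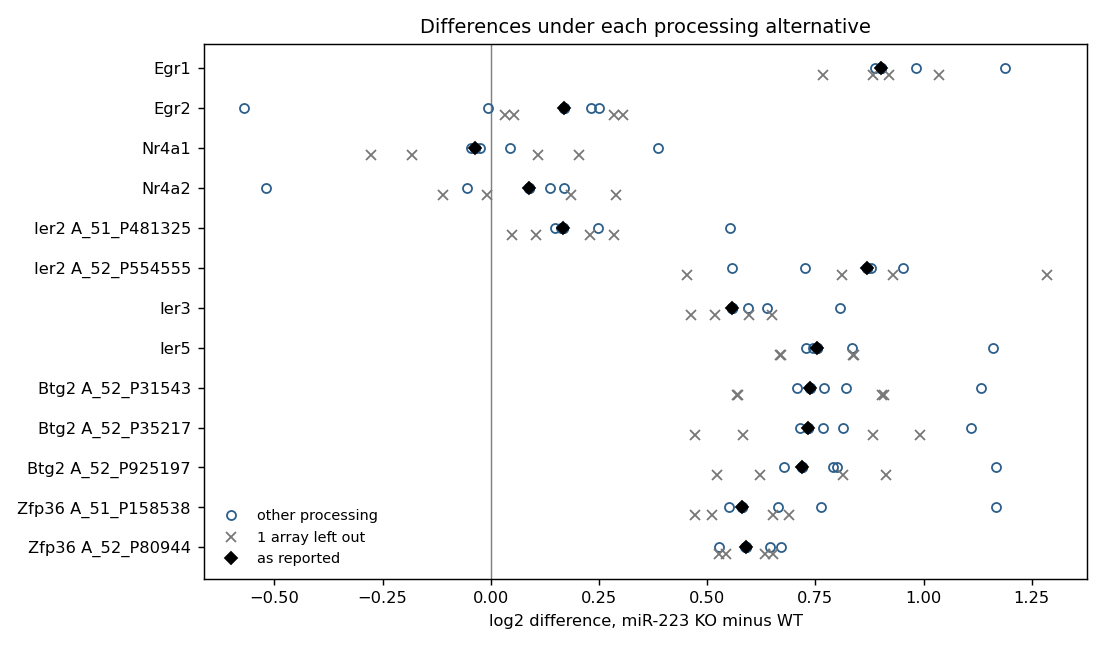
Log2 difference, miR-223 KO minus WT, of each of the 13 probes as reported (black), under other background correction, scaling, filters and starting values (blue circles) and with 1 array left out (grey crosses). The values of Egr1, Ier3, Ier5, Btg2, Zfp36 and both Ier2 probes stay above 0 in every setting drawn, while those of Egr2, Nr4a1 and Nr4a2 fall on both sides of it.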

How the data were processed

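RNA of immature granulocytes was hybridised in a single colour, Cy3, to a mouse whole-genome array. Per the file headers, Agilent Feature Extraction 10.5.1.1 made the spot values, so the deposited intensity is detrended and background-subtracted within an array and not scaled between arrays. Probes are annotated on mm9. The authors also deposited a table that, set against each scan, held log2 intensity shifted by a constant in every array (r of at least 0.99996 over probes, medians 4.68 to 4.69). How it was made is not given in the sources used here.

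Outlier spots (75 to 81 per array) were left out, the 75th percentile was subtracted on the log2 scale, and spots of a probe were averaged. A probe was kept when at least 2 of 4 arrays called it well above background (25749 of 41174; 9 of them lack a value on some array, no member among them). Genotypes were compared with limma 3.58.1 in R 4.3.3 (lmFit, eBayes, Benjamini-Hochberg, threshold 0.05), without blocking on replicate number. An exact permutation over 4 arrays cannot reach the threshold, so the tests rest on the spread shared across probes (prior degrees of freedom 1.99). In lists a gene was taken by its brightest probe, and at most 4 genes with the smallest p were named. The procedure was tested on simulated data. The number of arrays limits the precision. Members and lists were chosen with earlier results of these data known. Promoter and microRNA sequences are from RefSeq.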

Additional observations from a re-analysis of the deposited data

How the results depend on the processing

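The number of probes at an adjusted p under 0.05, of 25749 tested, was 0 as reported. It was 2491 with an intensity trend (1298 higher in KO, 1193 lower) and 267 on the authors' deposited values. With normexp fitted without control spots it was 3555 (1376 higher, 2179 lower). Among the 23812 probes well above background on all 4 arrays it was 128. For the immediate early probes, 13 as reported, it was 7 with the trend and 9 with normexp fitted without control spots, all higher in KO. In every other setting it was 0. Of the immediate early probes 9 were higher at an unadjusted p under 0.05 and 9 had KO arrays above WT arrays. With 1 probe per gene both numbers were 5, of 9 genes tested. With 1 array left out the median log2 difference of the immediate early probes lay between 0.52 and 0.69. The second number is not set beside these fits, because 1 array against 2 is easier to separate than 2 against 2. With normexp on all spots the number higher at an unadjusted p under 0.05 was 6, with 0.757% of all probes higher.

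Signs turned for probes with no call. Egr2 was -0.57 with normexp on all spots and -0.0059 without control spots. Nr4a2 was -0.52 and -0.056 in the same settings, and -0.11 without KO replicate 1 and -0.0076 without WT replicate 1, in a range of -0.11 to 0.29 with 1 array left out. Nr4a1 was 0.045 on the deposited values and 0.39 with normexp on all spots, and 0.11 without KO replicate 2 and 0.20 without WT replicate 1, in a range of -0.28 to 0.20 with 1 array left out. The cause was not tested. Normexp on all spots moved the median of all probes to -0.31, without control spots it was -0.10, and with no filter -0.11.

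The labels number the replicates 1 and 2 in both genotypes but name no shared animal or batch, and same-numbered arrays did not deviate together (r = 0.02 across probes). With the replicate block 0 probes were called and 5931 had an unadjusted p under 0.05. Of these 2481 were higher in KO, 9.64% of all probes, and 8 of the 13 immediate early probes were among them. Egr3 was not above background, so no fold is given.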
